A study of Zea mays with 14 samples.

Results

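The 63 genes described here were higher in root hair of maize zmlrl5 plants than in wild type root hair, at a near equal level in zmlrl5 and wild type root. They were taken from 39305 gene IDs by levels in CPM (a gene's share of its library's counts, scaled to a fixed total), averaged over the libraries of a group with 0.1 added. A gene had to reach 5 CPM in zmlrl5 root hair, a zmlrl5 to wild type root hair ratio of 3 with both zmlrl5 libraries above both wild type libraries, 1 CPM in wild type root, and a zmlrl5 to wild type root ratio from 0.75 to its inverse, shortened to 2 decimals. The hair level alone left 11845 genes, the hair ratio 114, the order of the libraries 113, the root level 97 and the root ratio 63. 2 IDs named in the rule were left out beforehand. These values chose the genes, so the differences between zmlrl5 and wild type below are descriptions and carry no test.

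Messenger RNA of seedlings aged 3 days was counted in 14 libraries, 2 in each of 7 groups. A tissue set of 6 libraries held wild type root hair, root and aerial seedling of the inbred line B73, the hairs having been scraped off frozen roots. A zmlrl5 set of 8 libraries held root hair of wild type and zmlrl5 plants with the cultivar label W22, and root of both genotypes with the label B73. The wild type roots were titled as freed of their hairs, and the titles of the zmlrl5 roots do not say so. The root ratio may thus compare roots freed of hairs with roots that kept them. The labels call the mutant a knock down in hair and a knock out in root, so the difference between hair and root response cannot be told apart from line and kind of mutant. The growth protocol, by contrast with the cultivar label, gives B73 throughout. The labels do not say how many plants or mutant lines stand behind a library, so each p-value rests on a spread between samples that may be technical. No ID carries the name LRL5 in the table of names, so loss of the targeted gene was not analysed here.

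A root hair is a tubular outgrowth of a single epidermal cell that takes up water and ions from the soil. By its name zmlrl5 is a maize relative of the LRL genes, bHLH factors needed for root hair growth in Arabidopsis. Most of a root's RNA comes from cells other than hairs, among them dividing cells, cortex and the vascular cylinder, and a scraped hair fraction can carry some of it. In such bulk samples fewer cells of a type and less RNA per cell cannot be told apart.

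The RefSeq gene table of assembly Zm-B73-REFERENCE-NAM-5.0 matched 44 of the 63 genes, 41 of them to 1 locus, and gave 8 a name. These 8 encode an auxin transporter, a dehydrin, an ABC transporter, an oxidoreductase of flower development, 2 MYB-type transcription factors, a Mediator subunit and the gene m20. The other 55 have an ID only. GRMZM2G381076 and GRMZM2G381086 matched the same 2 loci, so reads may be split between them, and GRMZM2G074914 also matched 2 loci. 0 of the 63 belonged to any of the marker or pathway lists used below. Those lists go by gene name, which only 8 of the 63 had, so this does not place the genes outside those cell types or pathways.

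The ratio of zmlrl5 to wild type root hair ran from 3.02 to 36.0 with a median of 4.07. It was 10 or more for 8 genes, from 5 to 10 for 15 and under 5 for 40. The 2 zmlrl5 hair libraries lay close together for most genes, the higher over the lower being 1.08 at the median. The widest gap was that of GRMZM2G138258, with 3.16 and 8.12 CPM in zmlrl5 hair against 2.26 and 1.16 CPM in wild type hair, a 2.57-fold gap within zmlrl5. Root ratios ran from 0.752 to 1.31 with a median of 1.05.

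**Figure D1:**
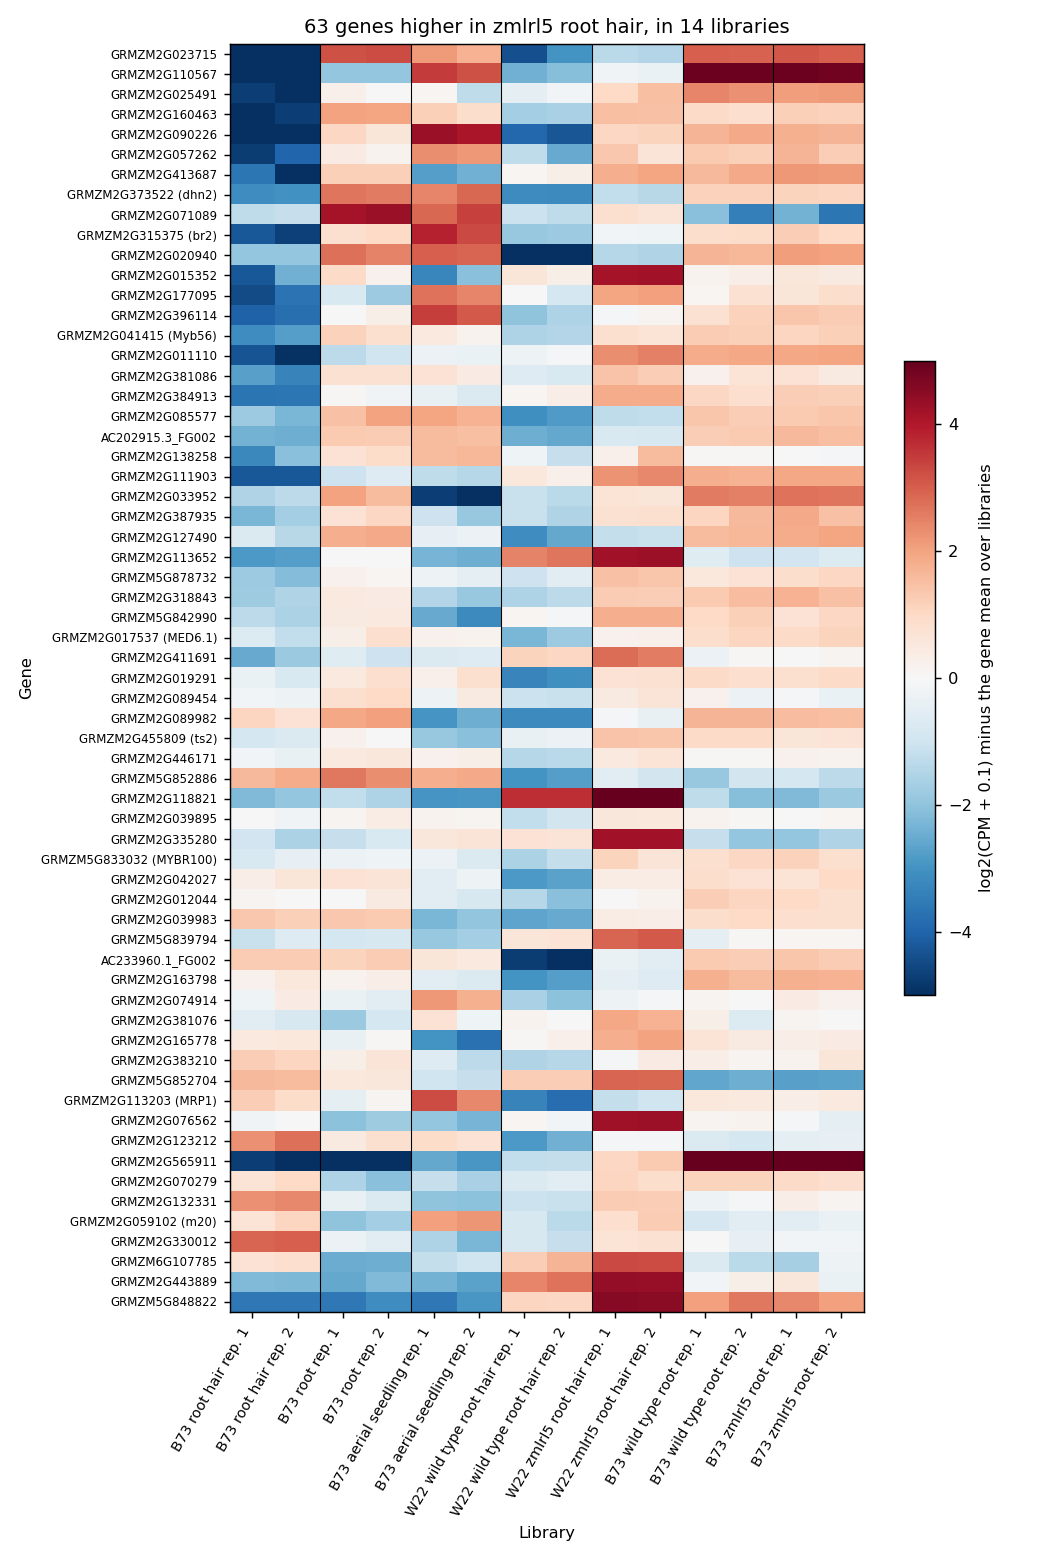
Level of each of the 63 genes in each of the 14 libraries, as log2 of CPM plus 0.1 after subtracting the gene's mean over the libraries. Rows are genes, columns are libraries grouped by line and tissue, and colours stop at 5 above or below the mean. The zmlrl5 hair columns are above the wild type hair columns in every row because the rule required it, whereas the B73 columns differ from gene to gene.

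br2 (GRMZM2G315375, brachytic2) encodes an ABCB-type transporter that moves auxin, and its loss dwarfs maize stalks. It stood at 11.6 and 12.3 CPM in W22 wild type hair and at 39.7 and 37.7 CPM in zmlrl5 hair. In root it stood at 81.6 and 83.6 CPM in wild type and at 102 and 88.3 CPM in zmlrl5. The zmlrl5 hair level was thus above wild type hair and below all 4 root libraries.

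dhn2 (GRMZM2G373522) encodes a dehydrin, a hydrophilic protein of water-deficit responses. Its levels were 14.3 and 13.8 CPM in wild type hair, 54.8 and 49.0 CPM in zmlrl5 hair and 272 to 282 CPM over the 4 root libraries of the zmlrl5 set. The hair level in zmlrl5 equalled 18.5% of the wild type root level. MRP1 (GRMZM2G113203), an ABC transporter gene of the multidrug resistance-associated family, stood at 4.96 and 3.56 CPM in wild type hair and at 21.95 and 25.5 CPM in zmlrl5 hair. Its 4 root libraries held 64.4 to 73.4 CPM, and so it too was below root in both hair genotypes.

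ts2 (GRMZM2G455809, tasselseed2) encodes a short-chain dehydrogenase known for its part in sex determination of maize flowers. Wild type hair held 23.7 and 25.1 CPM, zmlrl5 hair 82.9 and 80.3 CPM, wild type root 58.8 and 59.3 CPM and zmlrl5 root 46.0 and 48.5 CPM. Its zmlrl5 hair level was above all 4 root libraries, unlike that of the genes above. m20 (GRMZM2G059102) shared that order, with 1.69 and 1.12 CPM in wild type hair, 5.44 and 7.46 CPM in zmlrl5 hair and 1.62 to 2.38 CPM in root.

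Transcription genes made up the rest of the named genes. Myb56 (GRMZM2G041415), a MYB-type transcription factor gene, went from 3.89 and 4.14 CPM in wild type hair to 20.1 and 18.4 CPM in zmlrl5 hair. By library totals this was below its 24.0 to 28.1 CPM in root. MYBR100 (GRMZM5G833032), named as a MYB-related factor, had 1.41 and 1.86 CPM in wild type hair, 9.58 and 6.92 CPM in zmlrl5 hair and 7.72 to 10.1 CPM in root. By library totals its zmlrl5 hair and root overlapped. For both genes the order of zmlrl5 hair and root depends on the scaling of libraries described below. MED6.1 (GRMZM2G017537), a subunit gene of the Mediator complex that links transcription factors to RNA polymerase, stood at 3.33 and 4.72 CPM in wild type hair, 19.1 and 19.7 CPM in zmlrl5 hair and 31.0 to 36.2 CPM in root.

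Among genes without a name, GRMZM2G090226 had the largest hair ratio, 36.0. It stood at 2.76 and 2.11 CPM in wild type hair and at 87.9 and 94.6 CPM in zmlrl5 hair, while the 4 root libraries held 139 to 158 CPM. AC233960.1_FG002 followed with a ratio of 25.8, from 0.395 and 0.165 CPM in wild type hair to 10.5 and 8.96 CPM in zmlrl5 hair, and 31.6 to 35.0 CPM in root. GRMZM2G020940 had a ratio of 21.7, from 4.17 and 4.01 to 93.1 and 88.7 CPM in hair, against 797 to 1056 CPM in root. By library totals, these genes were all close to silent in W22 wild type hair next to their root level. Zmlrl5 hair also stayed below root, which for GRMZM2G090226 depends on the scaling of libraries described below.

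GRMZM2G076562 had the other order. Its hair ratio was 19.4, from 21.7 and 18.7 CPM in wild type to 392 and 398 CPM in zmlrl5, and the 4 root libraries held only 14.9 to 23.0 CPM. GRMZM2G118821 stood at 48.4 and 47.5 CPM in wild type hair, 327 and 315 CPM in zmlrl5 hair and 0.711 to 1.46 CPM in root. GRMZM2G335280 stood at 5.98 and 5.63 CPM in wild type hair, 66.7 and 66.7 CPM in zmlrl5 hair and 0.853 to 1.54 CPM in root.

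GRMZM2G118821 and GRMZM2G335280 were thus above root of the zmlrl5 set already in wild type hair. That hair carried the label W22 and the root B73, so line and tissue cannot be told apart there. GRMZM2G113652 had the same order, with 102 and 117 CPM in wild type hair, 331 and 357 CPM in zmlrl5 hair and 8.89 to 11.8 CPM in root. GRMZM5G852704 joined them at 74.4 and 73.7 CPM in wild type hair, 236 and 227 CPM in zmlrl5 hair and 4.64 to 5.70 CPM in root. GRMZM2G132331 took the largest share of zmlrl5 hair counts among the 63, at 841 and 828 CPM against 167 and 160 CPM in wild type hair and 292 to 437 CPM in root. In the B73 tissue set, GRMZM2G118821 stood at 0.697 and 0.864 CPM in hair and 1.49 and 1.19 CPM in root. There GRMZM2G113652 held 2.36 and 2.59 CPM in hair and 17.9 and 18.4 CPM in root. Hair and root overlapped for GRMZM2G335280 (1.78 and 1.12 against 1.56 and 2.03 CPM). Hair was above root for GRMZM5G852704 (97.2 and 94.2 against 45.4 and 46.6 CPM).

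The remaining genes with high ratios or levels spread over both orders. GRMZM2G015352 stood at 2.76 and 2.19 CPM in wild type hair, 33.4 and 34.6 CPM in zmlrl5 hair and 2.03 to 2.70 CPM in root, and GRMZM2G019291 at 0.338 and 0.414, 6.99 and 7.10, and 7.30 to 8.15 CPM. The ratio was 13.2 for the former and 15.01 for the latter. GRMZM2G042027 and GRMZM2G160463 had ratios of 8.83 and 8.79, with zmlrl5 hair at 10.3 and 10.5 CPM for the former and at 155 and 150 CPM for the latter. GRMZM2G039983 (76.4 and 75.6 CPM in zmlrl5 hair), GRMZM2G089982 (97.2 and 80.9 CPM) and GRMZM2G111903 (110 and 124 CPM) had ratios of 7.63, 7.73 and 3.80.

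Set against root, zmlrl5 hair was above all 4 root libraries for 31 genes, below all 4 for 26 and neither for 6. Hair here is labelled W22 and root B73, so line and tissue cannot be told apart in this order. Both wild type hair libraries were below both wild type root libraries for 51 of 63. These orders were counted from library totals and for the 63 only, with no share over other genes. TMM scaling, which sets libraries to a common level for most genes, gave factors of 0.769 to 0.797 in hair and 1.24 to 1.32 in root of this set. Such factors raise hair against root, so orders with a small gap depend on the scaling. The orders were not counted with it. Wild type root over wild type hair was 3.28 at the median of the 63, and 1.16 over all 11395 genes that pass the rule's hair and root levels. The rule's limit on wild type hair relative to zmlrl5 hair enters this comparison, so it is a description. Zmlrl5 hair as a share of wild type root ran from 2.09% for GRMZM2G565911 to 26700% for GRMZM2G118821, with a median of 135%.

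**Figure D2:**
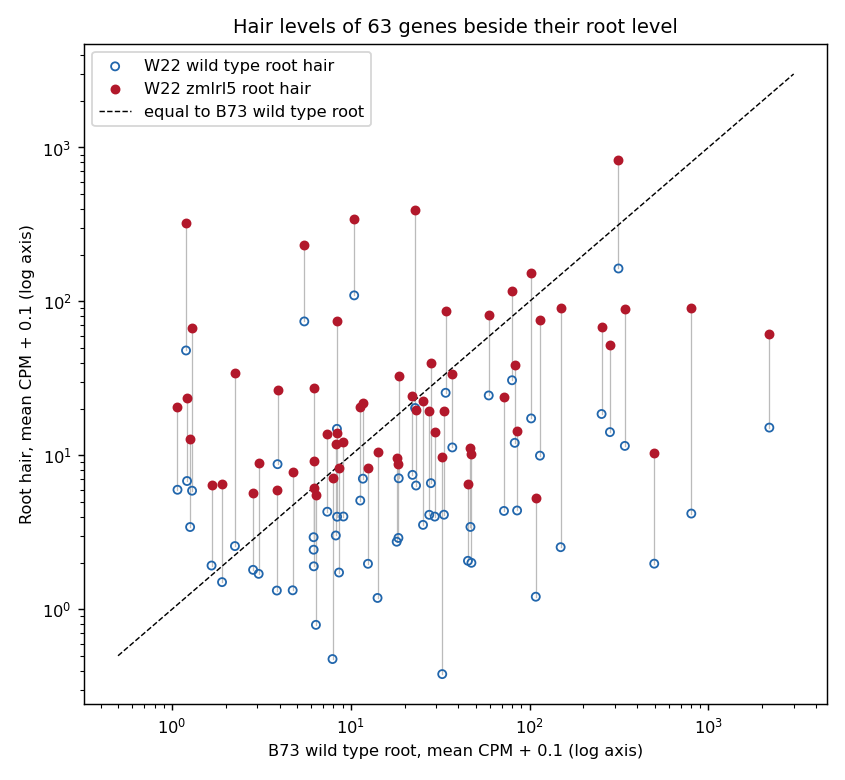
Mean root hair level against mean wild type root level of the 63 genes in the zmlrl5 set, as CPM plus 0.1 on log axes, with wild type hair and zmlrl5 hair as separate points. By library totals, 31 genes have both zmlrl5 hair libraries above every root library and 26 have both below every root library. Hair is labelled W22 and root B73.

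Some genes sat close to the thresholds. Just inside the hair ratio were GRMZM2G025491 (3.016), GRMZM2G070279 (3.019) and GRMZM2G411691 (3.034), and just outside GRMZM2G126580 (2.992), GRMZM2G021794 (2.98) and GRMZM2G149422 (2.939). For the root ratio, GRMZM2G076562 (0.752), GRMZM2G118821 (0.762), GRMZM2G396114 (1.302) and GRMZM2G413687 (1.309) were inside. GRMZM2G304528 (0.733), GRMZM5G803308 (0.715), GRMZM2G053503 (1.331) and GRMZM2G131165 (1.34) were outside. A root ratio inside the limits does not show that zmlrl5 and wild type root were equal.

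The rule did take genes lower in wild type than in zmlrl5 hair of the line labelled W22 and present in root. The B73 tissue set itself was not used to choose them. Counts of its 6 libraries were fitted over all genes with edgeR's quasi-likelihood test, and a gene was called at a Benjamini-Hochberg adjusted p under 0.05. Of the 63 genes 61 had enough counts to be tested, GRMZM2G443889 and GRMZM5G848822 being left out. In B73 root hair against B73 root, 21 genes were higher (34.4% of those tested), 29 lower (47.5%) and 11 not called. Over all 25551 genes tested the shares were 34% and 39.2%, and over the genes past the rule's hair and root levels 57.6% and 17.3%. The median log2 difference was -0.31 over the 61, -0.14 over all genes and 0.83 over the genes past those levels.

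Those calls rest on TMM scaling, which sets libraries to a common level for most genes, and the factors differed between tissues at 0.628 to 0.685 in hair and 1.36 to 1.5 in root. With library totals alone, 11 of the 61 were higher (18%) and 37 lower (60.7%), against 15.4% and 58.1% of all genes and 25.9% and 40.6% of genes past the levels. That scaling moved the median of all genes from -0.14 to -1.25, and all 11 higher and 29 of the lower calls were shared with TMM. 6 genes called higher with TMM had a negative difference with totals. CPM values in sentences use library totals, so a gene called higher by the fit can have like or lower CPM in hair.

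The largest falls from root to hair in B73 were those of GRMZM2G023715, GRMZM2G110567, GRMZM2G160463 and GRMZM2G090226, with GRMZM2G025491 and GRMZM2G057262 beside them at 1 and 2 counts in hair. GRMZM2G023715 stood at 0.0774 and 0.144 CPM in hair, 125 and 133 CPM in root and 61.1 and 45.7 CPM in aerial seedling. From root to hair GRMZM2G023715 fell by 9.01 ± 0.40 on the log2 scale (SE, adjusted p = 8.79e-21). GRMZM2G090226, the gene with the largest zmlrl5 ratio, stood at 0.813 and 0.864 CPM in hair, 88.0 and 66.4 CPM in root and 859 and 729 CPM in aerial seedling. Hair and root did not overlap, with a log2 difference of -5.41 ± 0.30 (adjusted p = 4.3e-18).

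GRMZM2G160463 held 1.51 and 1.98 CPM in hair against 222 and 216 CPM in root, a log2 difference of -5.84 ± 0.29 (adjusted p = 1.73e-19). GRMZM2G110567 held 0.0387 and 0.144 CPM in hair, 19.2 and 19.2 CPM in root and 820 and 666 CPM in aerial seedling, with a difference from root of -6.51 ± 0.42 (adjusted p = 2.1e-16). For the genes near 0 counts in hair, root over hair was 197 for GRMZM2G025491 (95% counting interval 34.7 to 7820), 84.5 for GRMZM2G057262 (22.9 to 705) and 21.0 for GRMZM2G177095 (5.35 to 181). With these 3 set at a floor of 3 counts over the group, and GRMZM2G565911 left out because hair and root were both under it, the median of the remaining 60 genes was -0.37.

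Of the named genes, br2, dhn2 and Myb56 were lower in B73 hair. br2 stood at 2.24 and 1.62 CPM in hair, 75.9 and 88.2 CPM in root and 628 and 434 CPM in aerial seedling, and fell by 4.29 ± 0.27 from root to hair (adjusted p = 1.93e-16). The order aerial seedling, root, hair held without overlap. dhn2 stood at 14.6 and 15.6 CPM in hair, 811 and 771 CPM in root and 697 and 940 CPM in aerial seedling, and fell by 4.59 ± 0.25 from root to hair (adjusted p = 3.66e-18). Root and aerial seedling overlapped for dhn2.

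Myb56 stood at 1.24 and 1.62 CPM in hair, 26.0 and 20.2 CPM in root and 16.2 and 13.2 CPM in aerial seedling. From root to hair it fell by 2.89 ± 0.32 (adjusted p = 3.58e-10), and root against aerial seedling was not called (0.24 ± 0.28, adjusted p = 0.457). GRMZM2G020940 was another gene of this kind, at 66.2 and 64.9 CPM in hair, 1678 and 1413 CPM in root and 1980 and 1866 CPM in aerial seedling, and fell by 3.45 ± 0.24 (adjusted p = 1.5e-15). GRMZM2G111903 (-2.39 ± 0.33) and GRMZM2G113652 (-1.75 ± 0.30) were also lower in hair than in root. For GRMZM2G113652 this is the opposite order to the zmlrl5 set, where W22 wild type hair was above root labelled B73.

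Other genes of the 63 were higher in B73 hair. GRMZM2G132331 stood at 1711 and 1848 CPM in hair, 273 and 214 CPM in root and 87.9 and 85.1 CPM in aerial seedling, a rise of 3.98 ± 0.25 from root to hair (adjusted p = 8.38e-17). Its B73 hair level was above both zmlrl5 hair libraries. GRMZM2G330012 stood at 63.3 and 66.8 CPM in hair, 6.70 and 5.58 CPM in root and 2.80 and 1.63 CPM in aerial seedling, a rise of 4.53 ± 0.29 (adjusted p = 1.44e-16). GRMZM6G107785 (4.68 ± 0.46), GRMZM2G070279 (3.81 ± 0.30), GRMZM2G123212 (3.08 ± 0.26), GRMZM2G076562 (2.97 ± 0.29) and GRMZM5G852704 (2.18 ± 0.23) were higher as well.

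m20 and MRP1 were the named genes higher in B73 hair under either scaling. m20 stood at 4.84 and 6.48 CPM in hair, 0.677 and 0.841 CPM in root and 12.7 and 14.4 CPM in aerial seedling, and rose by 4.0 ± 0.37 from root to hair (adjusted p = 3.94e-12). MRP1 stood at 119 and 95.7 CPM in hair, 37.4 and 56.1 CPM in root and 488 and 271 CPM in aerial seedling, a rise of 2.32 ± 0.25 (adjusted p = 2.41e-10). Its B73 hair level was also above both zmlrl5 hair libraries of W22. By library totals the aerial seedling held the highest level for both genes. For m20 the difference of hair from aerial seedling was not called with TMM (-0.55 ± 0.29, adjusted p = 0.081).

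ts2 was not called between hair and root, with 16.4 and 18.3 CPM in hair and 35.3 and 30.1 CPM in root. The log2 difference was 0.20 ± 0.25 (adjusted p = 0.476) with TMM and -0.92 (adjusted p = 0.00203) with library totals. MED6.1 was not called with TMM either (-0.43 ± 0.26, adjusted p = 0.142), but was lower in hair with library totals (-1.55, adjusted p = 1.53e-05). MYBR100, with 2.55 and 3.31 CPM in hair and 3.59 and 3.79 CPM in root, was called higher by 0.80 ± 0.34 (adjusted p = 0.0363), but stood at -0.33 (adjusted p = 0.394) with library totals. AC233960.1_FG002 (1.19 ± 0.24) and GRMZM2G039983 (1.04 ± 0.22) were called higher, and with library totals they stood at 0.07 and -0.08, neither called. GRMZM2G042027 (0.91 ± 0.28) turned to -0.21. GRMZM2G089982 was not called (0.02 ± 0.22), and library totals gave -1.09 (adjusted p = 1.97e-05).

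**Figure D3:**
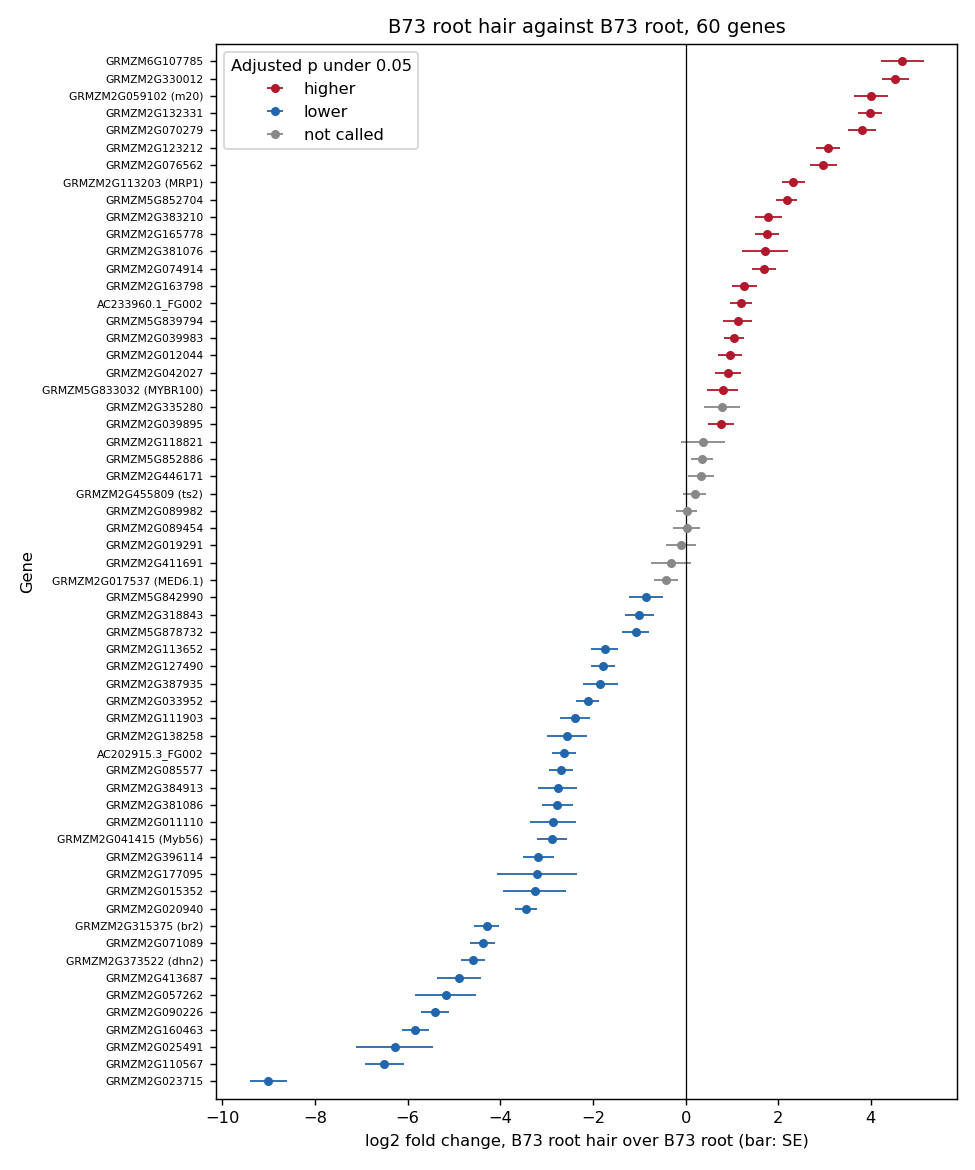
Log2 difference between B73 root hair and B73 root for 60 of the 63 genes, with bars of 1 SE, coloured by call of edgeR's quasi-likelihood test. GRMZM2G443889 and GRMZM5G848822 were not tested and GRMZM2G565911 is left out for lack of counts. Values run from -9.01 for GRMZM2G023715 to 4.68 for GRMZM6G107785.

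Against aerial seedling, 22 of 61 genes were higher in B73 hair (36.1%), 26 lower (42.6%) and 13 not called by edgeR's quasi-likelihood test, next to 34.2% and 45% of all genes and 57.6% and 21.1% of genes past the rule's levels. With library totals 19 were higher (31.1%) and 32 lower (52.5%), next to 23.4% and 54.4% of all genes and 39.6% and 32.6% of genes past the levels. The log2 difference was -12.2 ± 0.41 for GRMZM2G110567, -9.18 ± 0.33 for GRMZM2G090226 and -7.41 ± 0.30 for br2. GRMZM2G330012 was higher by 5.57 ± 0.31, GRMZM2G132331 by 5.07 ± 0.26 and ts2 by 1.89 ± 0.27 (adjusted p = 6.73e-08). dhn2 (-5.05 ± 0.26), Myb56 (-2.64 ± 0.32) and MRP1 (-1.13 ± 0.24) were lower, while m20 (-0.55 ± 0.29), MED6.1 (-0.47 ± 0.26) and MYBR100 (0.62 ± 0.35) were not called with TMM. With library totals, m20 (-1.26, adjusted p = 0.000434) and MED6.1 (-1.17, adjusted p = 0.00044) were called lower.

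Root against aerial seedling gave 21 genes higher in root (34.4%) and 20 lower (32.8%), next to 28.5% and 32% of all genes and 30.7% and 26.2% of genes past the levels. With library totals the even split became 28 higher (45.9%) and 15 lower (24.6%), next to 40.5% and 24.7% of all genes and 46.6% and 17.6% of genes past the levels. GRMZM2G033952 was higher in root by 6.49 ± 0.33 on the log2 scale, at 174 and 128 CPM against 1.54 and 0.956 CPM. GRMZM2G089982 was higher by 4.28 ± 0.25 and ts2 by 1.68 ± 0.26. MRP1 (-3.45 ± 0.26), m20 (-4.55 ± 0.37), br2 (-3.11 ± 0.24) and GRMZM2G110567 (-5.69 ± 0.27) were lower in root. The 3 comparisons share their libraries, so they are not independent of each other.

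By calls with TMM, 11 of 61 genes were lowest in hair and highest in aerial seedling, br2 and GRMZM2G090226 among them. Another 7, with dhn2 and Myb56, were lower in hair than in both other tissues with no call between those, and 4 were lower in hair than in both and higher in root than in aerial seedling. Hair was above both other tissues for 15 genes, of which 7 were also higher in root than in aerial seedling, 3 lower and 5 not called. 5 genes were called in none of the comparisons. No single tissue pattern covered the 61 genes. The patterns were counted for these genes only, so whether they differ from those of other genes was not tested.

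The same tissue differed between the library sets for many of the genes. In B73 root hair against W22 wild type root hair, 33 of 63 (52.4%) were 4-fold or more apart, 13 higher and 20 lower in B73, next to 14.5% of the genes past the rule's levels. The rule used the W22 wild type value, so these shares are read as description. 28 genes had both B73 hair libraries above both W22 wild type hair libraries, 10 of the 63 also above both zmlrl5 hair libraries, and 31 had both below. 18 genes were under 1 CPM in B73 hair. The counts of 28, 10, 31 and 18 were made for the 63 only, so whether they are particular to these genes was not tested. AC233960.1_FG002 stood at 32.5 and 31.99 CPM in B73 hair against 0.395 and 0.165 CPM in W22 wild type hair. GRMZM2G118821, at 327 and 315 CPM in zmlrl5 hair of W22, stood at 0.697 and 0.864 CPM in B73 hair.

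B73 wild type root was measured in both sets, and 12 of 63 genes (19%) were 4-fold or more apart there, next to 4.78% of genes past the levels. The tissue set was higher for 3 and lower for 9 of them. GRMZM2G565911 had 0 counts in root of the tissue set, where 3 counts would be 0.0733 CPM, and 479 and 517 CPM in wild type root of the zmlrl5 set. GRMZM5G848822 had 0 counts in hair, 1 in root and 1 in aerial seedling of the tissue set, and 4.86 and 7.35 CPM in wild type root and 27.7 and 27.1 CPM in zmlrl5 hair of the zmlrl5 set. GRMZM2G110567 stood at 19.2 and 19.2 CPM in one set's root and at 2195 and 2190 CPM in the other's, and GRMZM2G071089 at 139 and 156 CPM against 1.70 and 0.627 CPM. Both groups carry the same line and tissue labels. For hair, library set and line cannot be told apart.

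**Figure D4:**
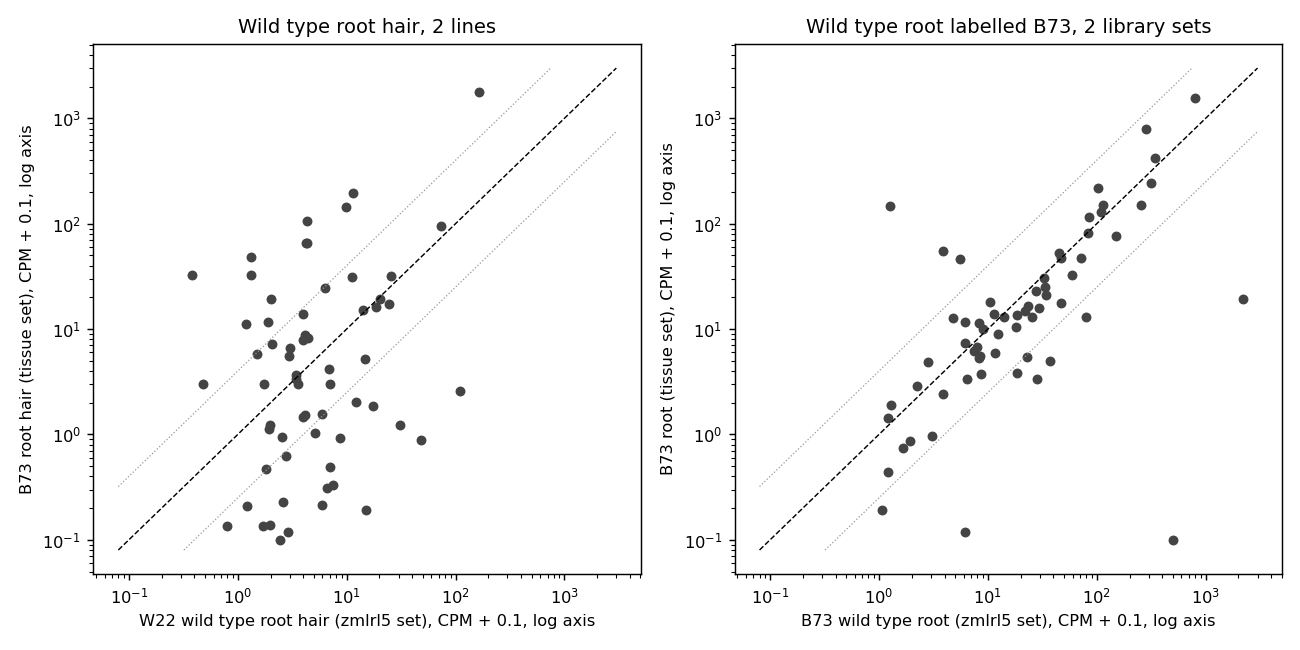
Levels of the 63 genes in the tissue set against the zmlrl5 set, as mean CPM plus 0.1 on log axes, for wild type root and for wild type root hair, with lines at 4-fold. Outside the lines are 12 genes in root and 33 genes in hair.

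Marker genes of other cells were read in the same hair libraries, with edgeR's quasi-likelihood test over 25303 genes, of which 10.1% were higher and 12.4% lower in zmlrl5 hair. Of 11 root hair genes 6 were lower and 0 higher, among them the phosphate transporter gene pht9 (-0.56) and the hemoglobin gene Hb2 (-1.46). Their summed level was 4730 CPM in each wild type library and 3570 to 3780 CPM in zmlrl5, against 134 to 213 CPM in the root groups. Of 13 shoot genes, which encode parts of the photosynthetic apparatus, 7 were higher and 0 lower, such as a rbcS gene at 1.53 (GRMZM2G098520) and Cab-m7 at 1.14. Their sum was 73.1 and 61.3 CPM in wild type hair and 73 and 134 CPM in the first and second zmlrl5 library, against 3850 to 3870 CPM in aerial seedling. Over all marker lists 9 genes were higher, 3 without the second zmlrl5 library and 4 without the second wild type library. Between the same zmlrl5 libraries the 63 genes had a median ratio of 1.08, higher over lower. The rule required both of these libraries to lie above wild type, which favours a small gap. These 2 lists moved the same way in zmlrl5 root against wild type root, by the same test. There 6 of the 13 shoot genes were higher and 0 lower, and 5 of the 11 root hair genes were lower and 0 higher. Over all 25303 genes, 1081 were higher and 1034 lower in that comparison. The part of shoot cells in the levels of the 63 genes was not tested.

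Of 8 genes of the stele and xylem, the vascular part of the root, 2 were lower and 0 higher, with a sum of 908 to 944 CPM in wild type hair and 509 to 550 CPM in zmlrl5 hair. Of 11 genes of dividing cells 2 were lower and 0 higher, with sums of 65.9 to 72.5 and 63.3 to 66.0 CPM. Of 12 genes of elongating and other root body cells 2 were higher and 2 lower, the aquaporin gene por2 (0.90) and expB4 (1.86) against expa1 (-0.86) and expB7 (-1.87), and their sum was 3340 to 3480 CPM in wild type and 4040 to 4250 CPM in zmlrl5. RCP1, the 1 root cap gene, was lower by -0.41, at 76.0 to 79.7 and 56.5 to 62.0 CPM. It stood at 0.513 to 0.648 CPM in wild type root of the zmlrl5 set and at 113 to 118 CPM in root of the tissue set. The part of these cells in the levels of the 63 genes was not tested.

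Pathway lists were read in the same way between the hair genotypes. Of 37 ethylene genes 10 were higher and 3 lower, and of 18 WRKY factors 4 and 1. The 26 auxin genes gave 5 and 3, and the 15 heat shock genes 4 and 2. Of 7 pathogenesis-related and chitinase genes 4 were higher and 3 lower. Among 38 bHLH factors the counts were 5 and 6, among 17 nitrate assimilation genes 3 and 5, among 31 glutathione S-transferases 3 and 8 and among 7 peroxidases 1 and 2. Their medians on the log2 scale ran from -0.19 for glutathione S-transferases to 0.64 for the pathogenesis-related genes, next to -0.01 over all genes. The summed level of the pathogenesis-related list went the other way from its median, with 3340 and 3400 CPM in the wild type hair libraries and 2920 and 2990 CPM in those of zmlrl5, and it had chiB (-2.13), PR-1 (-0.56) and PR10 (-0.28) as its lower genes.

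Some of the 63 genes lie near each other in the order of the RefSeq table. Of the 41 matched to 1 locus, 4 were within 10 table genes of another and 11 within 50. Neighbours were not counted for other genes, so whether the 63 lie closer together than others was not tested. GRMZM2G039895 and GRMZM2G015352 were 7 genes apart, GRMZM2G042027 and GRMZM2G089454 10, and GRMZM2G020940 and GRMZM2G023715 12. GRMZM2G019291, MED6.1, GRMZM6G107785, GRMZM2G160463 and GRMZM2G111903 fell in a single stretch of 500 table genes. Of the other genes tested in that stretch, 17 of 143 (11.9%) were called 2-fold or more apart between the hair genotypes, 7 higher and 10 lower, next to 7.68% of all 15830 such genes pooled and a median of 7.19% over 98 stretches. MYBR100 and GRMZM2G076562 shared a stretch with 33 of 190 (17.4%). The highest share at this width, 17.6% (13 of 74), was in a stretch without any of the 63 genes. With stretches of 250 table genes the highest share, 24.2% (23 of 95), was in one that held 2 of them, and with 1000 the highest, 13.8% (35 of 254), was in one that held 1. This count was chosen after the values were seen and carries no test.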

How the data were processed

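The authors deposited raw read counts for each gene ID, 1 file per library, with totals from 12336633 to 27788359. The tools named, per the submitters' processing notes, are TopHat2, HTSeq and DESeq. Versions, genome build and strand setting were not stated there. Counts of overlapping, antisense or near-identical genes are therefore uncertain. HTSeq's summary entries in the tissue set, 3.58% to 6.71% of reads outside genes and 1.91% to 2.58% ambiguous, stayed out of totals and tests.

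CPM was computed from file totals and the rule was applied to group means with 0.1 added. Each library set was fitted alone with edgeR 4.0.16 in R 4.3.3 (filterByExpr with minimum count 10 and minimum total 15, TMM, glmQLFit and glmQLFTest, two-sided, no covariate), and p-values were Benjamini-Hochberg adjusted over all genes tested. The fit was tested on simulated data with few genes changed between tissues, so this does not bear on the choice of scaling. Standard errors are the log2 difference over the square root of F. Ratios with 1 to 3 counts carry an exact 95% interval conditional on the total. Intervals and floors cover counting error only, since reads are not independent molecules.

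Genes described by name were those with a gene name, the 10 with the highest zmlrl5 hair level, the 10 highest and 3 lowest hair ratios, the 6 largest rises and falls between B73 hair and root, 4 with B73 hair at or above zmlrl5 hair, and those just outside a threshold. GRMZM2G033952, GRMZM2G071089, GRMZM2G138258, GRMZM2G177095 and GRMZM2G565911 were named after their values were seen. The genes and the lists were chosen with earlier results of these data known. Replicate numbers did not pair samples. Alternatives were other scalings, no filter, DESeq2 1.42.0, a replicate block, leaving out each library, and other thresholds of the rule.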

Additional observations from a re-analysis of the deposited data

How the results depend on the processing

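The number of genes found by the rule was 227 with a hair ratio of 2, 33 with a ratio of 4 and 24 with a root ratio from 0.9 to its inverse, as wider or narrower limits imply, and 56 to 75 when 1 library was left out. With library totals and no scaling factor, 11 instead of 21 genes were higher in B73 hair than in root. The log2 differences that turned were GRMZM2G012044 -0.18, GRMZM2G039895 -0.35, GRMZM2G039983 -0.08, GRMZM2G042027 -0.21, GRMZM2G089454 -1.11, GRMZM2G089982 -1.09, GRMZM2G446171 -0.78, GRMZM2G455809 -0.92, GRMZM5G833032 -0.33, GRMZM5G839794 -0.01 and GRMZM5G852886 -0.76. Against aerial seedling, GRMZM2G127490 turned to -0.68 and GRMZM5G852886 to -0.11 under the same totals, and GRMZM2G015352 (0.02) to -5.25 without the second B73 hair library, which held all its hair counts, with up to 1.09 when another library was left out. The cause of the other changes was not tested beyond the scaling itself. Genes called numbered 46 to 50 for hair against root, 46 to 48 for hair against aerial seedling and 31 to 39 for root against aerial seedling with 1 library left out, next to 50, 48 and 41. Beside the reversal above, MYBR100 (0.80) lost its call between hair and root at 0.47 with upper-quartile scaling (adjusted p = 0.221), 0.72 with DESeq2 (0.156) and 0.80 with the replicate block (0.0504), and at 0.53 without the second hair library (0.272), 0.82 without the first root library (0.11) and 0.76 without the second (0.154). MED6.1 gained one with upper-quartile scaling (-0.75, adjusted p = 0.0115), and against aerial seedling it was lower under that scaling (-0.58, 0.0432), as was m20 (-0.66, 0.0391, and -0.84, 0.0401 without the second hair library). Marker genes higher in zmlrl5 hair numbered 5 with DESeq2 and 3 to 12 with 1 library left out, next to 9.

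Libraries with the same replicate number did not deviate together, with correlations of -0.18 for hair and root, -0.01 for hair and aerial seedling and -0.07 for root and aerial seedling. With the number as a block, 48, 48 and 37 of the 61 genes were called in these comparisons, and 20 marker genes. With the numbers of hair and root crossed, 21 genes were higher and 29 lower, as without a block. Groups of 2 libraries and levels near 1 CPM limit what the tests can show.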
